A study of Mus musculus with 27 samples.

Results

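The genes described here are 10 parts of the odor transduction machinery of olfactory sensory neurons: Gnal, Gnb1, Gng13 and Ric8b for the G protein, Adcy3 for the cyclase, Cnga2 and Cngb1 for the cyclic nucleotide-gated channel, Ano2 for the chloride channel, and the helpers Stoml3 and Omp. They were chosen by name, as known components of the cascade, though with earlier results of these data known. All 10 were on the array, out of 16637 named genes, and they were read by 12 of 29922 probes; Omp and Gnal had a pair of probes each. Ano2 is listed on the array under its older symbol Tmem16b. RNA came from the olfactory mucosa of female FVB mice aged 25 days. The occluded group is mucosa behind a nostril closed by cautery, the open group is mucosa from the other side of the same mice, and the normal group is mucosa of other mice that had only a sham cautery on the muzzle, called untreated in the design text. Each group had 3 biological replicates with 3 arrays apiece, 27 arrays in all. The open side is thus not untreated tissue. The labels do not state how long the nostril had been closed.

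An odorant that binds its receptor on a cilium of an olfactory neuron switches on a G protein whose alpha subunit is encoded by Gnal. This subunit activates the adenylyl cyclase encoded by Adcy3, and the cAMP it makes opens a cation channel built from Cnga2, Cnga4 and Cngb1 subunits. Calcium that enters through the channel opens the chloride channel encoded by Ano2, which enlarges the current. Mature neurons keep these proteins in their cilia together with the olfactory marker protein, encoded by Omp, and such neurons make up much of the olfactory epithelium.

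Values are given as log2 of the deposited probe intensity after quantile normalization between arrays, as 1 value per biological replicate (the mean of arrays a to c). Differences come from limma fitted to all probes, with adjusted p-values over all of them and a threshold of 0.05. Array medians lay between 123 and 274. Between 8.57% and 19.8% of an array's probes were below its noise limit, and between 36 and 80 probes were saturated, here at or above 99.5% of the array's highest value. The mean correlation of an array with the other arrays of its replicate was at least 0.951. Probes differ in how they bind, so levels are compared between groups and not between genes.

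Omp was left out of the counts because its brightest probe was saturated on nearly all arrays; of the other 9 genes, only Cnga2 had saturated arrays, 3 of 27. 8 of these 9 genes had a higher level on the occluded side than on the open side in all 3 same-numbered pairs. These were Gnal, Gng13, Ric8b, Adcy3, Cnga2, Cngb1, Ano2 and Stoml3; Gnb1 was the exception. The median difference over the 9 genes was 0.47 on the log2 scale, or 1.38-fold, beside a median of 0.00425 over all probes. By pair the median was 0.38, 0.36 and 0.40, and 9, 8 and 8 of the 9 genes lay above 0. Of all probes, 50.7% had a difference above 0 over the 3 pairs together. None of the 9 passed an adjusted p of 0.05 in limma, a threshold that 0.221% of all probes (66) passed; with the pair as a fixed block 0 probes did. At an unadjusted p under 0.05, 5 genes lay higher (Gnal, Adcy3, Cnga2, Ric8b and Stoml3) and 0 lower, against 3.56% of all probes higher and 2.63% lower. Of all probes, 13.8% were higher in all 3 pairs. The genes were listed with earlier results of these data known, so these counts are a description and carry no test of the group. In RNA from whole mucosa, more RNA per neuron and a larger share of neurons cannot be told apart.

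**Figure D1:**
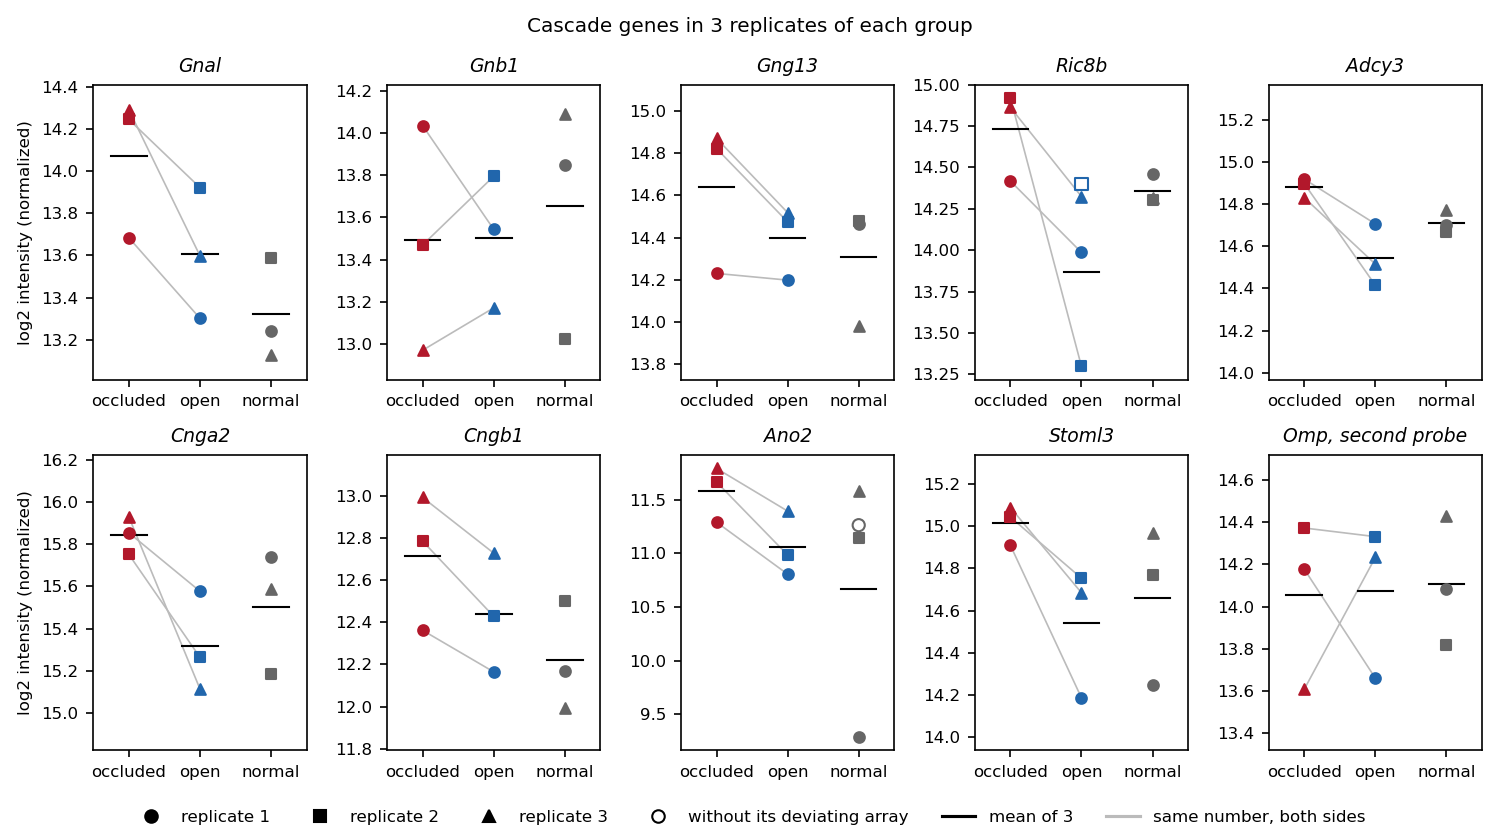
Normalized log2 intensity (vertical axis; each panel has its own range) of 10 probes in occluded, open and normal mucosa. Symbols are biological replicates, grey lines join same-numbered occluded and open replicates, black bars are means of 3, and hollow symbols leave out a deviating array. All lines slope down from the occluded to the open side except for Gnb1 and the second Omp probe.

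Gnal, which encodes the alpha subunit, had 13.68, 14.24 and 14.29 in occluded mucosa, against 13.30, 13.92 and 13.60 in open mucosa and 13.24, 13.59 and 13.13 in normal mucosa. The occluded values overlapped those of the open side and lay above all 3 normal values. The difference from the open side was 0.47 ± 0.19 (SE), or 1.38-fold, with a 95% interval of 0.04 to 0.89 (limma adjusted p = 0.76). A second Gnal probe was dim, with deposited intensities of at most 124 on occluded arrays and 126 on open arrays, and differed by 0.31 ± 0.34. That value rests on array b of open replicate 1, which read 5.08, below the noise limit, against at least 23.8 on the other 2 arrays; without deviating spots it was 0.05 ± 0.24. Gng13 encodes the gamma subunit that olfactory cilia use. It had 14.23, 14.82 and 14.87 in occluded mucosa, against 14.20, 14.47 and 14.52 in open mucosa and 14.47, 14.48 and 13.98 in normal mucosa. Replicate 1 was nearly level between the sides (0.03), while replicates 2 and 3 differed by 0.35 each, and the difference was 0.24 ± 0.18 (adjusted p = 0.98).

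Gnb1 encodes a beta subunit that many cell types use. It had 14.03, 13.47 and 12.97 in occluded mucosa, against 13.54, 13.80 and 13.17 in open mucosa and 13.85, 13.02 and 14.09 in normal mucosa. The groups overlapped widely, and the pairs did not share a direction (0.49, -0.33 and -0.20). The difference was -0.01 ± 0.28, with an interval of -0.64 to 0.62 (limma adjusted p = 0.9997). Its sign turned to 0.03 without normalization between arrays and to 0.08 with median centring.

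Ric8b encodes a chaperone and exchange factor that stabilises the olfactory alpha subunit. It had 14.42, 14.92 and 14.86 in occluded mucosa, against 13.99, 13.30 and 14.32 in open mucosa and 14.46, 14.30 and 14.31 in normal mucosa. With all spots it showed the largest difference of the 9 genes between the sides, 0.86 ± 0.24 or 1.82-fold (adjusted p = 0.41). The low open value of replicate 2 rests on 1 array: the probe read 2482 on array b, against 25187 and 19623 on arrays a and c of the same replicate. Without that spot the open value of replicate 2 was 14.40 in place of 13.30. The difference was then 0.50 ± 0.15, or 1.41-fold, with an interval of 0.16 to 0.83 (limma adjusted p = 0.50). The pairs then differed by 0.43, 0.52 and 0.54, and the sides still did not overlap. A spot was left out, across the whole table, where it lay over 2 log2 units from the median of the 3 arrays of its replicate, a rule chosen after seeing the data. It covered 0.321% of spots above the noise limit.

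Adcy3, the cyclase gene, varied least between replicates. It had 14.92, 14.90 and 14.83 in occluded mucosa, against 14.71, 14.41 and 14.51 in open mucosa and 14.70, 14.67 and 14.77 in normal mucosa. The occluded values lay above all open and all normal values, and the normal values lay between the 2 sides with an overlap at the open side. Before normalization single arrays of the sides did not overlap either, with 28023 to 36057 on the 9 occluded arrays and 20357 to 27640 on the 9 open arrays. The 9 normal arrays read 23178 to 28105 and overlapped both sides. The difference between the sides was 0.34 ± 0.13, or 1.26-fold, with an interval of 0.05 to 0.63 (limma adjusted p = 0.71).

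Cnga2 encodes the channel subunit without which the olfactory channel does not open to cAMP. It had 15.85, 15.75 and 15.93 in occluded mucosa, against 15.58, 15.27 and 15.12 in open mucosa and 15.74, 15.18 and 15.59 in normal mucosa. No occluded value overlapped the open values. Deposited intensities ran from 51012 to 69313 on occluded arrays and from 34105 to 45495 on open arrays, with no overlap of the 9 arrays of each side. All 3 arrays of occluded replicate 3 were saturated for this probe, so that value is a lower limit; no open or normal array was saturated for it. The difference of 0.53 ± 0.17, or 1.44-fold, may thus be too small, and its interval was 0.14 to 0.91 (limma adjusted p = 0.55). Cngb1 encodes the modulatory subunit of the same channel. It had 12.36, 12.78 and 12.99 in occluded mucosa, against 12.16, 12.43 and 12.73 in open mucosa and 12.17, 12.50 and 11.99 in normal mucosa. The groups overlapped, while the pairs differed by 0.20, 0.36 and 0.26. The difference was 0.27 ± 0.18 (adjusted p = 0.96).

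Ano2 encodes the calcium-activated chloride channel of the cilia. It had 11.29, 11.67 and 11.79 in occluded mucosa, against 10.81, 10.99 and 11.40 in open mucosa and 9.29, 11.15 and 11.58 in normal mucosa. Between the sides it differed by 0.52 ± 0.41 (adjusted p = 0.98), and by 0.49, 0.68 and 0.40 in the pairs. The low normal value again came from a single array, which read 26.1 against 2100 and 2238 on the others of normal replicate 1. Without it that value was 11.26 in place of 9.29. This spot, although from normal mucosa, also widened the error of the comparison between the sides, because all groups share 1 estimate of the spread. Without deviating spots the error was 0.17 and the interval 0.13 to 0.91 (limma adjusted p = 0.60).

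**Figure D2:**
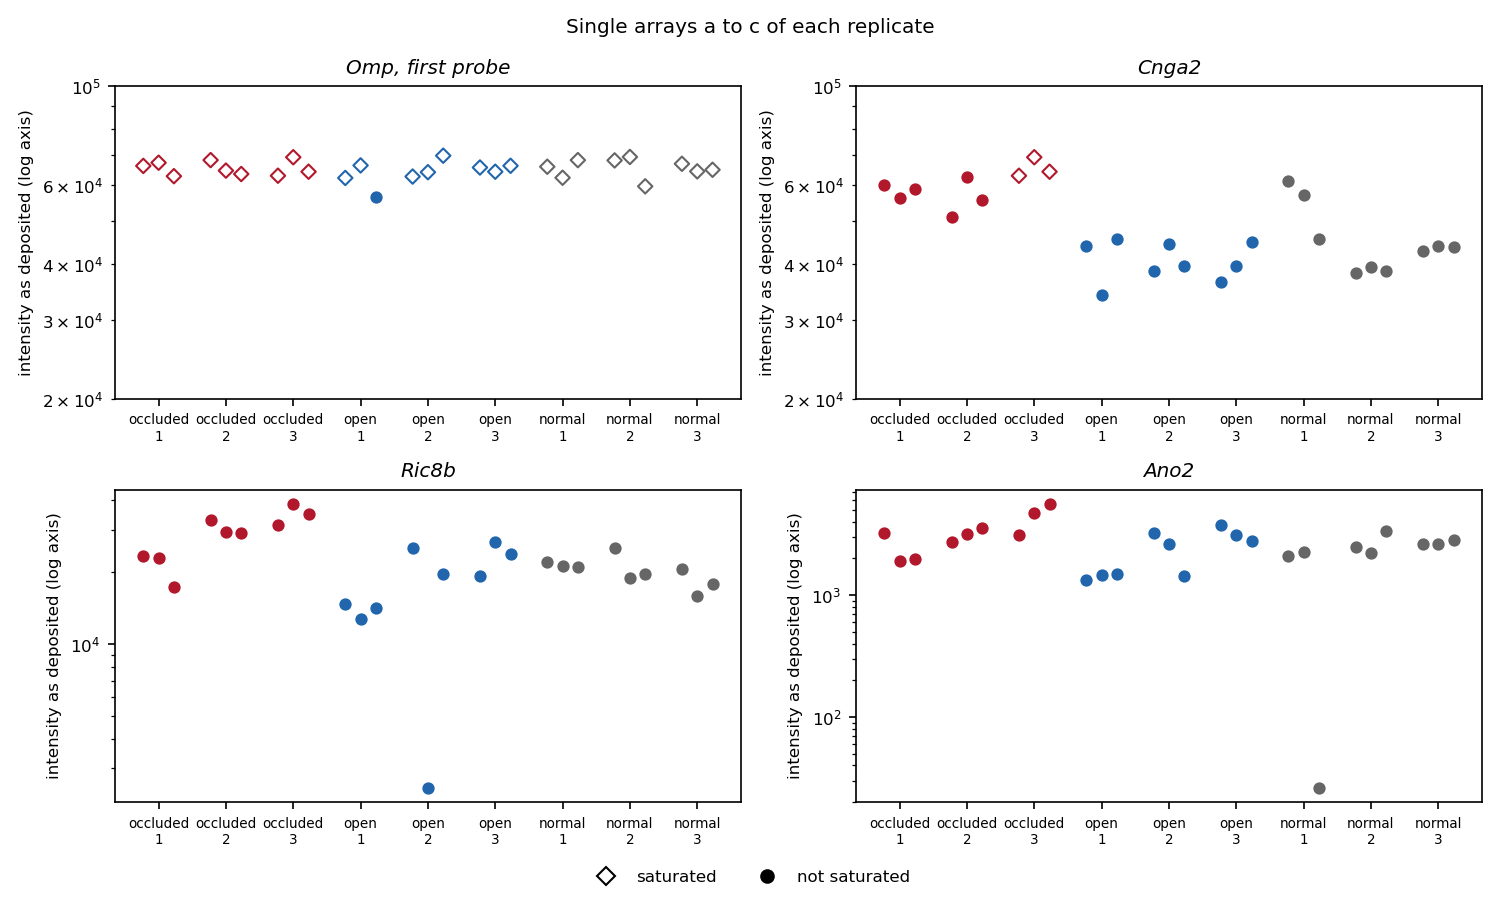
Deposited intensity (log axis) of 4 probes on each of the 27 arrays, grouped by replicate. Diamonds mark saturated spots: the first Omp probe is saturated on 26 arrays and Cnga2 on the 3 arrays of occluded replicate 3. A single low spot stands out for Ric8b (2482, open replicate 2) and for Ano2 (26.1, normal replicate 1).

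Stoml3 encodes a stomatin-like membrane protein of olfactory cilia. It had 14.91, 15.04 and 15.09 in occluded mucosa, against 14.19, 14.75 and 14.68 in open mucosa and 14.25, 14.77 and 14.97 in normal mucosa. The occluded values lay above all open values and overlapped the normal ones. The difference between the sides was 0.47 ± 0.19, or 1.39-fold, with an interval of 0.04 to 0.90 (limma adjusted p = 0.76). Ric8b, Adcy3, Cnga2 and Stoml3 were the 4 of 9 genes whose occluded values lay above every open value, a pattern seen in 3.76% of all probes. The replicate with the lowest value was number 1 on both sides for Gnal, Gng13, Cngb1, Ano2 and Stoml3, and also for Ric8b without its deviating spot.

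Omp is the usual marker of mature neurons in this tissue. Its brighter probe was at the ceiling on 9 of 9 occluded, 8 of 9 open and 9 of 9 normal arrays, so this probe gives no fold. The array that was not saturated, array c of open replicate 1, read 56381. A second Omp probe was not saturated anywhere, with 12175 to 23415 on occluded arrays and 9967 to 24468 on open arrays. It had 14.18, 14.37 and 13.61 in occluded mucosa, against 13.66, 14.33 and 14.23 in open mucosa and 14.08, 13.82 and 14.43 in normal mucosa. The pairs differed by 0.52, 0.04 and -0.62, in no shared direction. The difference was -0.02 ± 0.24, with an interval of -0.56 to 0.52 (limma adjusted p = 0.9997). The sign turned to 0.03 without normalization and to 0.08 with median centring.

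Promoter sequence was looked at for the 4 genes whose occluded and open values did not overlap, since their occluded values all lay on the same side. The sequences are the 250 bases before the annotated transcription start, 5′ to 3′ on the coding strand, from RefSeq on GRCm38.p6, all on the + strand. They lie at chr10:84917363-84917612 for Ric8b, chr12:4133147-4133396 for the first of a pair of Adcy3 starts, chrX:71991599-71991848 for Cnga2 and chr3:53488457-53488706 for Stoml3. Capitals mark CG dinucleotides.
Ric8b: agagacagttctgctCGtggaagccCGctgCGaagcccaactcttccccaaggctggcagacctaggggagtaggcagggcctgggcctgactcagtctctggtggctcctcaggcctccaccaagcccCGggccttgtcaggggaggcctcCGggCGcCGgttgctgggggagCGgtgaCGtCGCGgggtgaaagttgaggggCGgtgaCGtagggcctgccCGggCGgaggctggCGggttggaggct
Adcy3: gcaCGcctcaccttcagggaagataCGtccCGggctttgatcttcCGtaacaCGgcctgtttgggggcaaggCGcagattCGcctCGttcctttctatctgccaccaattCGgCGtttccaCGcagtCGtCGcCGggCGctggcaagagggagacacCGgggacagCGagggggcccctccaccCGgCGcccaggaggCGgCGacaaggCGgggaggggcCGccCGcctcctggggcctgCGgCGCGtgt
Cnga2: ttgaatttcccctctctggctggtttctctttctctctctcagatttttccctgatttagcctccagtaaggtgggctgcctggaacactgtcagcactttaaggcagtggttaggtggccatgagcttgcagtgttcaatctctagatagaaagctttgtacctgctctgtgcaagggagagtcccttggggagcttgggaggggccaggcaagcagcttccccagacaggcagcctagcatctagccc
Stoml3: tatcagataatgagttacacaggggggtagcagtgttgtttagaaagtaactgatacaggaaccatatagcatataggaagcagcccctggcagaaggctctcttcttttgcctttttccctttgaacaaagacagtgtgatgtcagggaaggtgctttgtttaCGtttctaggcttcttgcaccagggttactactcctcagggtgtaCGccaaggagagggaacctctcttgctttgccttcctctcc
The 4 promoters differed widely in CG content. Adcy3 had 27 CG dinucleotides and Ric8b 16, against 0 in Cnga2 and 2 in Stoml3, beside a median of 6 (quartiles 2 and 16) over 32851 windows. The Adcy3 value holds for its first start only. Over 300 bases, 50 of them after the start, the first Adcy3 start had 33 and the second 7. Promoter windows were found for 8 of the 10 genes, 12 windows in all with 50 further bases after the start. The Olf/Ebf motif (TCCC and GGGA with any pair of bases between them) and the homeodomain motif TAATTA read the same on both strands and cannot overlap each other. Neither occurred in these 12 windows, and over all windows they occurred in 0.904% and 5.29%. That says only that these letters are not in these windows.

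Against normal mucosa, which comes from other mice, the occluded side lay higher in 8 of the 9 genes, beside 51.0% of all probes. The median of the 9 genes was 0.35 or 1.28-fold (all probes: 0.00625), and 0.34 without deviating spots. None of the 9 passed in limma, against 0.00668% of all probes, and 1 (Gnal) had an unadjusted p under 0.05 and lay higher, against 1.62% of all probes higher and 1.25% lower. Gnal differed by 0.75 ± 0.24, or 1.69-fold, with an interval of 0.21 to 1.30 (limma adjusted p = 0.99999). Gnal, Adcy3 and Cnga2 lay above every normal value in all 3 occluded replicates, as did 3.57% of all probes. The other differences were 0.49 ± 0.23 for Cngb1, 0.38 ± 0.30 for Ric8b, 0.35 ± 0.24 for Stoml3, 0.34 ± 0.22 for Cnga2, 0.33 ± 0.23 for Gng13, 0.17 ± 0.16 for Adcy3 and -0.16 ± 0.35 for Gnb1. Ano2 differed by 0.91 ± 0.52 with all spots and by 0.25 ± 0.22 without deviating ones. In the same comparison all 13 immature neuron markers lay below 0 (median -0.22). So did 5 of the 6 mature neuron markers outside the cascade (median -0.09), while the 3 glia markers lay above 0 (median 0.20). The 4 bone and cartilage markers had a median of -0.74, with Col2a1 at -1.67 ± 1.08 and Acan at -1.06 ± 0.76. The open side was also low in them against normal mucosa (median -0.63, Col2a1 -1.70 ± 1.08, Acan -1.11 ± 0.76). The summed intensity of the bone and cartilage markers was 15824 to 34602 in occluded and 18460 to 51285 in normal mucosa. Col1a1 and Ibsp weigh most in that sum, with means of 13.67 and 13.50 in occluded mucosa, against 8.69 for Col2a1 and 7.52 for Acan. None of these markers passed in limma, and their part in the cascade differences was not tested.

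Against normal mucosa the genes of the open side lay in no shared direction. Of the 9 genes, 4 lay above 0 and 5 below, with a median of -0.12 (all probes: -0.00376, with 49.1% above 0). In limma 0 genes passed, as did 0% of all probes, and 0 had an unadjusted p under 0.05, against 0.789% of all probes higher and 0.805% lower. No gene had all its open values above the normal ones, which 2.06% of all probes did. Differences ran from -0.49 ± 0.30 for Ric8b to 0.39 ± 0.52 for Ano2, the genes whose brightest probe had a deviating spot. Without such spots they were -0.12 ± 0.19 and -0.27 ± 0.22. The intervals reached from -0.68 to 0.31 for Cnga2 and from -0.54 to 0.20 for Adcy3. Both comparisons with normal mucosa share its 3 replicates, and the occluded and open sides share mice.

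**Figure D3:**
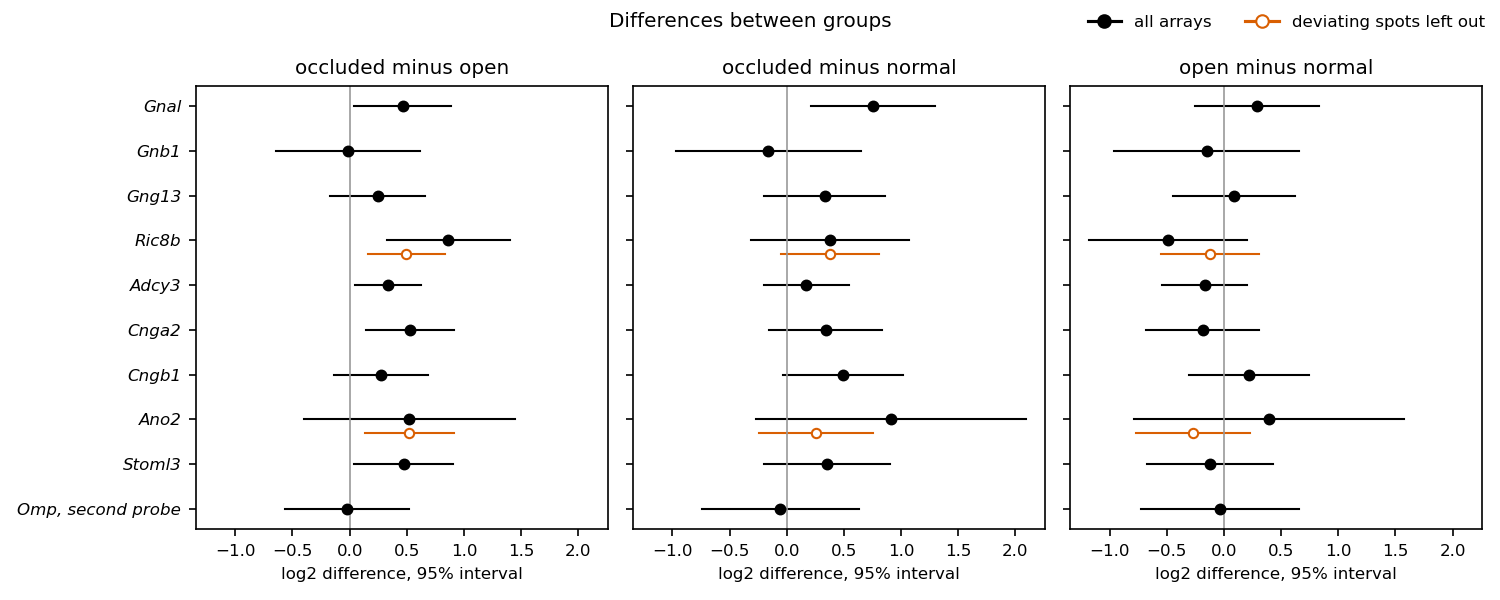
Log2 difference (horizontal axis) with its 95% interval from limma for 10 probes in occluded minus open, occluded minus normal and open minus normal mucosa. Black points use all arrays, and hollow points leave out deviating spots of Ric8b and Ano2. The left panel has 8 genes to the right of 0; in the right panel 5 of the 9 genes lie below 0.

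Other genes of the pathway split evenly between the sides. Of 24 further transduction genes (a channel subunit, phosphodiesterases, calcium and chloride transporters, calmodulin and kinases), 20 were measured. The channel subunit gene, Cnga4, was not among those measured. Of the 20, 10 lay above 0 and 10 below between the sides, with a median of -0.02. None passed in limma in any comparison, and between the sides 3 of 20 had an unadjusted p under 0.05, all higher on the occluded side, beside 3.56% of all probes higher and 2.63% lower. These were the cAMP phosphodiesterase gene Pde4a (0.72 ± 0.20), Slc24a4, whose exchanger removes calcium from the cilium (0.55 ± 0.17), and the kinase gene Prkg2 (0.81 ± 0.33), which was below the noise limit on 13 of 27 arrays. Gucy1b2, a guanylyl cyclase subunit gene, differed by 0.79 ± 0.47 and was below the limit on 6 arrays.

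Receptor transport and cilia helpers were measured in 10 of 15 listed genes, with 5 above 0, 5 below and a median of 0.08. None had an unadjusted p under 0.05 in limma, nor passed after adjustment. Ric8a, which chaperones other alpha subunits, differed by 0.30 ± 0.16 between the sides, Stom, the founding stomatin, by 0.26 ± 0.15 with 2 arrays saturated, the receptor transport helper Reep1 by 0.23 ± 0.17 and the ciliary motor gene Kif17 by -0.21 ± 0.22. Paralogs of the cascade genes (other cyclases, channel subunits, anoctamins and G protein subunits) were measured in 46 of 51 genes. Of these 20 lay above 0 and 26 below, with a median of -0.03, and none passed. An unadjusted p under 0.05 in limma was reached by 3 of 46, all with higher occluded levels. Of all probes, 3.56% did so with higher and 2.63% with lower occluded levels. Over the 3 comparisons the smallest p-values belonged to Ano3 (0.74 ± 0.21 between the sides, with 7 arrays below the noise limit), Gngt2 (0.52 ± 0.18), Cngb3 (0.61 ± 0.23, below the noise limit on all 27 arrays, so it gives no readable level) and Adcy8 (-1.06 ± 0.47, with 12 of 27 arrays below the limit).

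Markers of cell types in the mucosa were compared in the same way. Markers of mature olfactory neurons that are no cascade genes were measured in 6 of 9 cases. Rtp1, Cnga4 and Kcnmb3 were not measured. The 6 had a median of -0.06 between the sides, with 1 above 0 and 5 below, which is no measure of the share of mature neurons. Chga, a secretory granule protein, differed by 0.37 ± 0.16, the synaptic genes Snap25 and Syt1 by -0.01 ± 0.15 and -0.06 ± 0.17, Uchl1 by -0.07 ± 0.18, the calcium sensor gene Rcvrn by -0.06 ± 0.22 and the glutamate transporter gene Slc17a6 by -0.57 ± 0.41. Their summed intensity was 64747 to 68180 in occluded, 61716 to 71931 in open and 60791 to 80319 in normal mucosa. Immature neuron markers lay below 0 in 12 of 13 genes, with a median of -0.21, and none passed. They ran from -0.43 ± 0.22 for Dpysl3, a growth cone gene, to 0.15 ± 0.14 for Dcx, a microtubule gene of young neurons. Their summed intensity was 67110 to 91096 in occluded, 86081 to 99621 in open and 87397 to 100595 in normal mucosa, with an overlap of all groups, and was lower on the occluded side in all 3 pairs. Horizontal basal cell markers had 6 of 7 genes below 0 (median -0.20). They summed to 13321 to 16585 in occluded, 15847 to 20555 in open and 15802 to 19071 in normal mucosa. The sum was again lower on the occluded side in all 3 pairs. Krt14 weighs most in it, with a mean of 13.57 in occluded mucosa, and Egfr came next at 9.49. Vomeronasal neuron markers lay on both sides of 0, with a median of 0.13 over 5 genes. Trpc2, the channel gene of vomeronasal neurons, differed by 0.84 ± 0.17 (limma adjusted p = 0.16) and H2-M9 by 0.76 ± 0.21 (limma adjusted p = 0.41). The G protein genes Gnao1 and Gnai2 differed by 0.13 ± 0.16 and -0.43 ± 0.30, and Vmn2r1 was below the noise limit on 26 of 27 arrays. Their summed intensity was 20064 to 28065 in occluded, 20323 to 26928 in open and 22427 to 27765 in normal mucosa. Gnao1 and Gnai2 weigh most in that sum, with means of 14.03 and 12.40 in occluded mucosa. Trpc2 and H2-M9, at 8.61 and 9.76, hardly enter it. Between the sides, markers outside the cascade with an unadjusted p under 0.05 in limma were Chga, Trpc2, H2-M9, Cdk1, Dynlrb2 and Krt14. Cdk1 differed by 1.05 ± 0.35 (8 arrays below the noise limit), Dynlrb2 by 0.54 ± 0.20 and Krt14 by -0.38 ± 0.15. By list, this was 1 of 6 mature neuron, 2 of 5 vomeronasal, 1 of 8 globose basal, 1 of 8 respiratory and 1 of 7 horizontal basal cell markers. Of all probes, 3.56% reached it with higher and 2.63% with lower occluded levels. Medians were -0.07 for 7 sustentacular cell markers and 0.06 for 8 respiratory epithelium markers. They were -0.08 for globose basal cells, -0.20 for Bowman's gland, -0.11 for glia, -0.25 for endothelium, -0.13 for immune cells, -0.03 for the 1 blood marker measured, and 0.04 each for muscle and for bone and cartilage. No marker passed in limma, and the part of cell composition in the cascade differences was not tested.

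**Figure D4:**
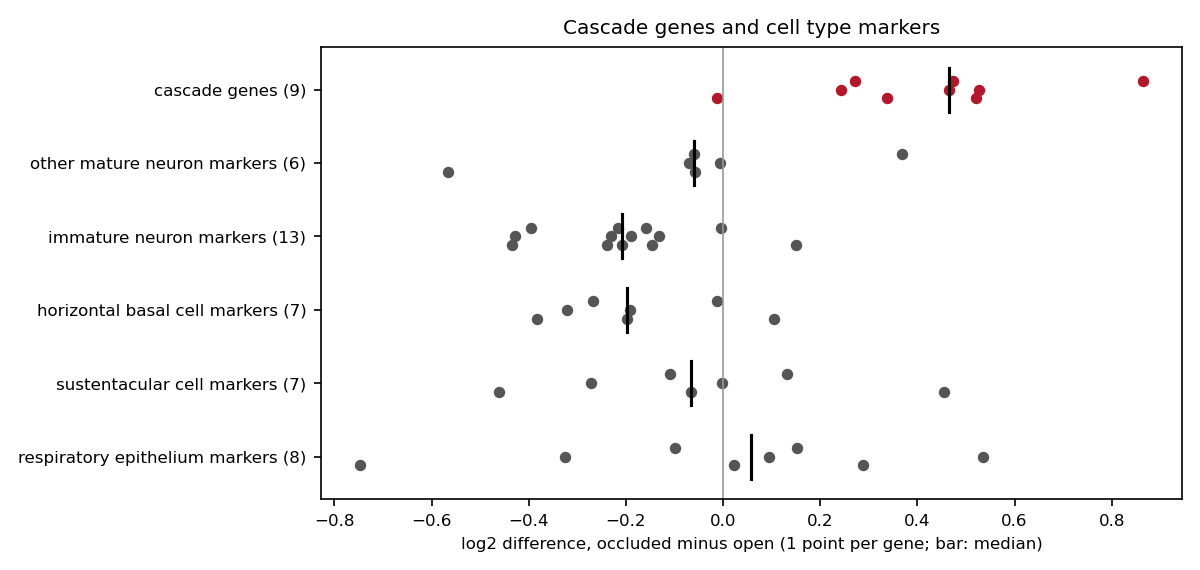
Log2 difference of occluded minus open mucosa (horizontal axis), 1 point per gene, for the 9 cascade genes and 5 lists of cell type markers; vertical bars are medians and numbers of genes stand in brackets. The cascade median is 0.47, that of other mature neuron markers -0.06 and that of immature neuron markers -0.21. The other mature neuron markers lack Rtp1, Cnga4 and Kcnmb3, which were not measured.

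The mean standardized level of the 9 genes was 0.37, 0.91 and 0.92 in occluded replicates, -0.60, -0.42 and -0.27 in open replicates and -0.47, -0.29 and -0.14 in normal replicates. All occluded replicates were thus above all others, and open and normal replicates overlapped. This mean keeps the deviating spots of Ric8b (open replicate 2) and Ano2 (normal replicate 1), which lower it in those replicates. The correlations below use the same mean, and no version without these spots was made. Correlation of a member with this mean over the 9 values lay between 0.61 for Ano2 and 0.78 for Gnal among 8 genes, and was -0.25 for Gnb1. Each member is itself part of the mean, which raises its correlation, so these values do not test whether the members vary together. The second Omp probe had -0.00191, but it is not part of the mean and cannot be set beside the members. Outside the cascade, the named genes with the highest Pearson correlation to the mean were Zfand2a (0.972), Ess2 (0.968), Tpte (0.960), Cd82 (0.957), Kirrel3 (0.951), Tex35 (0.943), Tead4 (0.942) and Olfr1093 (0.939). These values describe 9 points in 3 groups, of which both sides share mice. Tead4 was below the noise limit on 25 of 27 arrays. Ess2 differed by 1.78 ± 0.21 between the sides (limma adjusted p = 0.017) and Tpte by 1.06 ± 0.16 (limma adjusted p = 0.047), and both passed, though neither did with the pair as a fixed block. Cd82, a tetraspanin gene, had 13.53, 13.76 and 13.72 in occluded mucosa, against 13.25, 13.31 and 13.35 in open mucosa and 13.35, 13.49 and 13.38 in normal mucosa. Kirrel3, an adhesion gene of olfactory axons, differed by 0.96 ± 0.15 between the sides (limma adjusted p = 0.064).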

How the data were processed

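Mucosa RNA was amplified as aRNA and coupled to Cy5, per the labels' protocols. Probe intensity values on a linear scale were used as deposited by the authors; the scanner, any background correction and any scaling by the authors are not stated, and the files hold values below 0. Intensities were floored at the lowest positive value (0.912), log2 transformed and quantile normalized, since array medians differed by 1.15 on that scale. The 3 arrays of a replicate were averaged. R 4.3.3 with limma 3.58.1 and statmod 1.5.0 fitted 3 groups over 29922 probes with the mouse as a random block (consensus correlation 0.389). Tests were two-sided and p-values adjusted by Benjamini and Hochberg. The fit was tested on simulated data. Equal numbers in the titles were taken to mark 1 mouse, since the design text says that both sides came from the same individuals. Deviations from group means correlated at 0.516, -0.00436 and 0.142 in the 3 pairs. Number 1 also correlated with normal replicate 1, from another mouse, at 0.353 (occluded) and 0.394 (open), so the correlation is no sign of a shared mouse. Whether replicates are separate extractions is not stated, so p-values measure the spread between these samples.

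Gene names came from a platform annotation naming 21020 probes, updated through RefSeq (GRCm38.p6); 8902 probes are unnamed here. The brightest probe stands for a gene. The noise limit is 3 times the root mean square of an array's negative values. All 10 genes are named with every probe, plus, of each of the 3 further pathway lists, the 4 genes with the smallest p over the 3 comparisons, and 8 genes by correlation. Marker genes were named after their values were seen. The genes and lists were chosen with earlier results of these data known. Alternatives covered the block, normalization, floor, dim probes, array averaging, prior, probes of a gene, groups in the fit and each replicate left out. Protein sequences were not used here.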

Additional observations from a re-analysis of the deposited data

How the results depend on the processing

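No cascade gene passed in limma in the 468 tests under alternatives (16 settings for occluded against open, 18 for each other comparison); the lowest adjusted p was 0.15. Between the sides the 8 genes other than Gnb1 stayed above 0 in all 16. The 9 genes' median between the sides was 0.58 after median centring and 0.53 where arrays were not normalized. It was 0.39 when arrays were combined by their median, 0.39 when a gene's probes were averaged, and 0.35 to 0.44 with a replicate left out. Against normal mucosa the occluded median was 0.48 without normalization and 0.36 to 0.52 with a replicate left out, and the open median -0.10 to 0.0715.

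Under a fixed replicate block for the pair, the probes called between the sides were 0 in place of 66; they were 2 with the replicate number as a block over all 9 values, 3 with no replicate block, 0 without normalization, 37 with median centring, 102 with a trended robust prior, 14 with only both sides in the fit, and 0, 35 and 6 without pair 1, 2 or 3. No block changed the call of a cascade gene. Of occluded against normal, 2 probes passed; 0 did so with the number as a block, without normalization, with a floor at 16, with probes of a gene averaged or with only both groups, 24 with an offset of 50, 13 without the dimmest 30%, 5 with the median of arrays or without deviating spots, 26 with the trended prior, and 0 to 1 with a replicate left out (1 without normal replicate 3, 0 without any other). With the floor at 16, 1 further transduction gene (Prkg2) passed between the sides.

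Some signs turned. Between the sides Gnb1 was 0.0346 without normalization, 0.0844 after median centring and 0.0046 by the median of arrays, and -0.26 to 0.15 with a replicate left out; the second Omp probe was 0.0261, 0.0760 and 0.0388 in the same settings and -0.29 to 0.28. For occluded against normal, that probe was 0.0736 without normalization, 0.0189 after median centring and -0.20 to 0.21 with a replicate left out, and Gnb1 -0.48 to 0.0564. For open against normal, the Omp probe was 0.0474 without normalization, where the median of all probes was 0.0982 in place of -0.00376, and Ano2 was -0.14 with the median of arrays and -0.27 without deviating spots. With a replicate left out, Ano2 ranged from -0.30 to 0.85, Stoml3 from -0.33 to 0.0715, Gng13 from -0.0753 to 0.24, Gnb1 from -0.46 to 0.0681 and the Omp probe from -0.24 to 0.16. The cause was not tested where no value above shows it. Saturation of Omp and of Cnga2 and the number of mice limit the precision.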
